A study of Neurospora crassa with 86 samples.

Results

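Wild type Neurospora crassa given glutamine as its nitrogen source was compared with wild type in full medium, over 3 and 5 libraries. These are 8 of the 86 RNA sequencing libraries of a study of nitrogen regulation in this filamentous fungus, and they were taken by strain and medium as labelled, whatever their values. Mycelia of the wild type FGSC 2489 grew for 24 h from conidia in Vogel's minimal medium with 2% sucrose, at 25 °C in constant light, and were then washed in a medium without nitrogen. They spent the last 4 h before harvest in 50 mM glutamine with 2% sucrose, or in full medium, which held 25 mM ammonium nitrate with 2% sucrose. The groups thus shared the strain, the sucrose, the light and the nitrogen-free wash, and glutamine replaced both ammonium and nitrate. The labels call the replicates biological. A further 4 groups of 3 libraries each, all at 50 mM of a single nitrogen source with 2% sucrose, served for other readouts: wild type in glutamate, in nitrate and in ammonium, and the nit-2 deletion strain (Δnit-2) in nitrate. Levels were also ranked over all 14 wild type media. The others of these were isoleucine, proline and tryptophan at 50 mM, alanine at 112 mM, glycine at 200 mM, arginine at 344 mM and no nitrogen source, all with 2% sucrose, and, without sucrose, 2 mM mannose and carbon starvation, whose mycelia were washed without carbon and not without nitrogen.

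Glutamine and ammonium are preferred nitrogen sources of this fungus, and glutamine is the nitrogen donor for many amino acids and nucleotides. When such sources are scarce, the GATA factor NIT2 activates genes for the use of other sources, and the repressor NMR holds it back when they are plentiful. Nitrate use also needs the pathway-specific activator NIT4, and runs through a nitrate transporter, nitrate reductase and nitrite reductase.

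Levels are FPKM, fragments per kilobase of gene relative to the mapped total, taken from the joint table of the authors. A difference is a difference of log2(FPKM + 1), first group minus second, and this scale understates changes of low genes. A gene was called when limma's p, adjusted over the 8558 genes tested, was under 0.05 and the difference was at least 1 log2. The SE and p of limma rest on a spread shared over all 86 libraries, not on that of the libraries compared alone. Estimated depth was 13500000 to 17900000 fragments in the glutamine libraries and 8100000 to 15900000 in those of full medium. Mitochondrial genes took 0.00949 to 0.0119% of FPKM in glutamine and 0.00858 to 0.021% in full medium, where libraries labelled 1 to 3 lay at 0.00858 to 0.00952% and libraries 4 and 5 at 0.0174 to 0.021%. As in any bulk sample, a change in the share of cells of a type and a change of RNA per cell cannot be told apart.

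The samples were labelled mycelium. Of 8 markers of conidia and aerial hyphae, none was at 0 in all libraries of a group, and their summed level ran from 26.2 to 31.4 FPKM in glutamine and from 51.0 to 134 FPKM in full medium. Of these 8, 6 averaged under 5 FPKM in glutamine and 5 did so in full medium. The marker eas alone was at 5.65 to 13.7 FPKM in glutamine and 23.4 to 85.1 FPKM in full medium, and was not called. The wider list of 20 conidiation genes had a median of -0.05 log2, with 8 above 0 and 12 below. The sum of 8 markers of sexual tissue was 42.5 to 63.2 FPKM in glutamine and 53.5 to 61.8 FPKM in full medium. The part of such tissue in the results was not tested.

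Few genes passed both limits. limma called 97 of 8558 genes (1.13%), 37 higher in glutamine (0.432%) and 60 lower (0.701%). At an adjusted p under 0.05 with no limit of size there were 566 genes (6.61%), 284 higher (3.32%) and 282 lower (3.3%). The 3 glutamine libraries lay above all 5 of full medium in 948 genes (11.1%) and below all 5 in 771 (9.01%). The median difference over all genes was 0.006 log2. The largest falls were deeper than the largest rises, at -7.42 log2 against 2.27 log2.

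**Figure D1:**
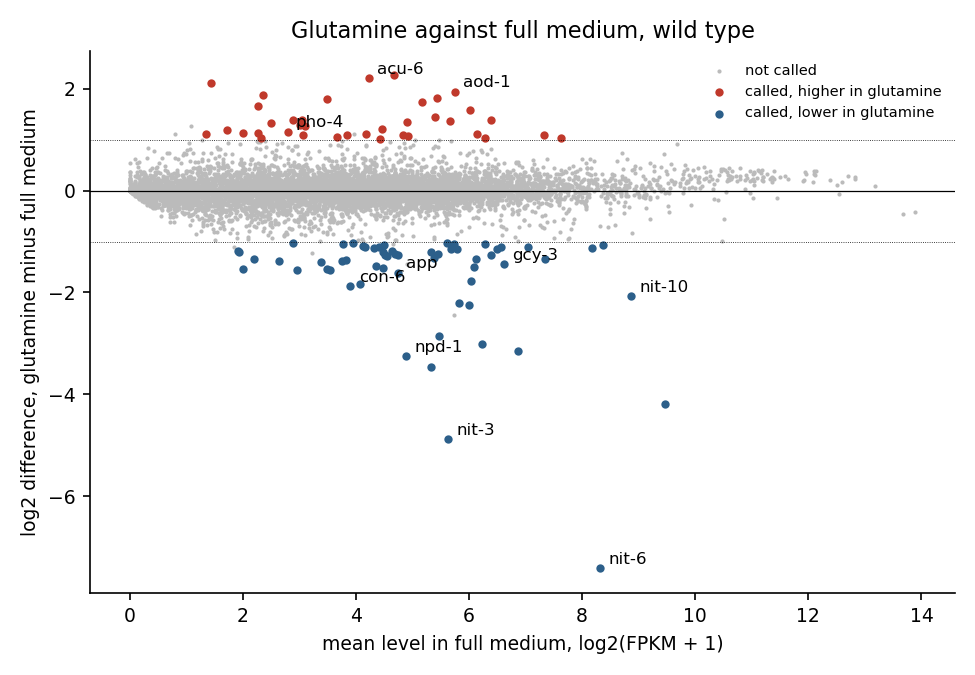
Difference between glutamine and full medium (log2, y axis) against the mean level in full medium (log2 of FPKM + 1, x axis), 1 point per gene tested, with dotted lines at 1 and -1. The 37 called genes higher in glutamine and the 60 lower ones are marked, with nit-6 lowest at -7.42. Some genes beyond the lines were not called, among them eas at -2.44.

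All 3 nitrate assimilation genes fell in glutamine. nit-6, nitrite reductase (NCU04720; supercontig 12.6, 534862 to 539145), was at 1.57, 0.552 and 0.589 FPKM in the 3 glutamine libraries, against 348, 362, 318, 276 and 283 FPKM in the 5 of full medium. nit-3, nitrate reductase (NCU05298; supercontig 12.4, 5420216 to 5423422), was at 1.06, 0.425 and 0.565 FPKM in glutamine, against 48.1, 49.6, 41.4, 38.9 and 65.9 FPKM in full medium. No glutamine library came near a full medium library in either gene. The differences were -7.42 log2 (SE 0.87, adjusted p = 3.7e-09) for nit-6 and -4.88 log2 (SE 0.76, adjusted p = 4.7e-06) for nit-3 by limma.

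nit-10, the nitrate transporter (NCU07205; supercontig 12.5, 6247448 to 6250397), was merged with the neighbouring NCU11348 in the joint table. The merged entry was at 111, 114 and 102 FPKM in glutamine, against 546, 556, 499, 355 and 384 FPKM in full medium, a difference of -2.07 log2 (adjusted p = 0.0021). In the files of single samples, where nit-10 stands alone, it was at 6.72, 4.90 and 4.52 FPKM (median-ratio scaled) in glutamine, against 371, 384, 333, 274 and 245 FPKM in full medium. The merged entry therefore understated the fall, which on the values of nit-10 alone was -5.85 log2 against full medium libraries 1 to 3 and -5.37 log2 against libraries 4 and 5 (adjusted p = 3.7e-08 and 1.4e-05).

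Over the 14 wild type media of the series, nit-3 and nit-6 had their lowest mean in glutamine. In ammonium, where no nitrate was added either, nit-6 was at 71.8 to 85.0 FPKM and nit-3 at 6.36 to 9.21 FPKM, above all glutamine libraries. In glutamate nit-6 was at 0.688 to 1.15 FPKM and nit-3 at 1.30 to 1.60 FPKM. The glutamine and glutamate libraries thus overlapped for nit-6 and, by the narrow gap between 1.06 and 1.30 FPKM, did not for nit-3. The ammonium libraries also carried more mitochondrial FPKM, 0.057 to 0.0712%, whose part was not tested.

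npd-1, named for a 2-nitropropane dioxygenase (NCU03949; supercontig 12.6, 2214190 to 2216356), was at 1.86, 2.05 and 2.27 FPKM in glutamine, against 23.6, 26.1, 22.7, 38.3 and 31.9 FPKM in full medium. It fell by 3.25 log2 (SE 0.46, adjusted p = 6.8e-07) with no overlap. NCU10051 (supercontig 12.7, 1037324 to 1039598), a gene without a symbol in the reference table, was at 36.3, 46.5 and 29.4 FPKM in glutamine, against 560.4, 652, 591, 1026 and 682 FPKM in full medium (-4.18 log2, SE 0.56, adjusted p = 1.8e-07). In full medium this was thus a highly expressed gene, and every glutamine library lay far under every full medium library.

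Further falls came from genes without symbols. NCU09160 averaged 2.68 ± 0.871 FPKM in glutamine and 39.3 ± 6.79 FPKM in full medium (SD, n = 3 and 5; -3.46 log2, adjusted p = 6.1e-10 by limma). The neighbours NCU09210 and NCU09209 fell together, by 3.16 and 3.01 log2. NCU08407 averaged 5.07 ± 0.683 FPKM in glutamine and 43.2 ± 6.31 FPKM in full medium (-2.86 log2, adjusted p = 2.7e-12 by limma). Other genes among the 15 largest falls were NCU06416 (-2.25), NCU01348 (-2.21), NCU09909 (-1.83), NCU08397 (-1.77) and NCU04435 (-1.56). The 15 falls, like the 15 rises, were taken only from called genes without overlap between the media. For their overlap con-6 (-1.88) and, among the rises, NCU00866 (2.12) were left out.

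**Figure D2:**
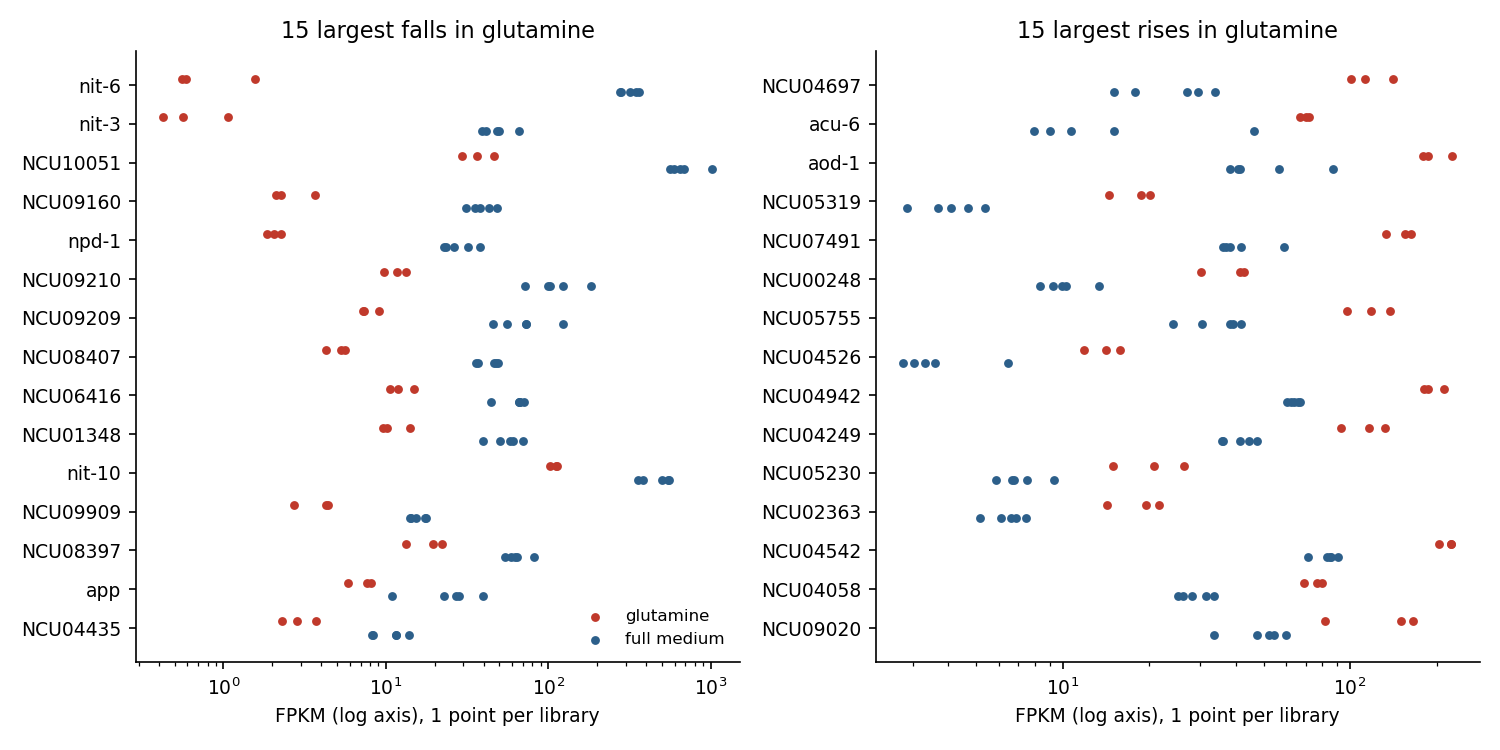
FPKM (log axis) of each library for the 15 largest falls and the 15 largest rises without overlap, glutamine above full medium in each row. nit-6 and nit-3 are separated most widely. The genes were chosen for lack of overlap, so in each row the glutamine libraries lie on 1 side by that choice.

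The regulators of nitrogen use were not among the called genes. Of 9 measured none was called, with a median of 0.08 log2 and a range of -0.33 to 0.26 log2. nit-2 was at 55.5, 47.7 and 56.0 FPKM in glutamine, against 45.2, 45.9, 40.9, 44.6 and 44.4 FPKM in full medium (0.26 log2, adjusted p = 0.15). Its glutamine libraries were all higher, by a small margin. nmr was at 15.7, 15.03 and 15.2 FPKM in glutamine, against 13.3, 12.2, 12.7, 14.5 and 15.03 FPKM in full medium (0.17 log2, adjusted p = 0.67), and nit-4 differed by 0.10 log2. The others were pco-1, the activator of purine use (0.08), cpc-1, the activator of general amino acid control (-0.13), its partner kinase gene cpc-3 (-0.33), and the GATA factor genes asd-4 (-0.09), sub-1 (0.08) and sre (0.02).

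Ammonium assimilation, the step by which ammonium enters glutamate and glutamine, gave 0 called of 5 genes with a median of -0.56 log2. gln-2, a glutamine synthetase gene, was at 171, 260.2 and 211 FPKM in glutamine, against 317, 355, 310.3, 381 and 380.3 FPKM in full medium. Its libraries did not overlap, and the difference of -0.72 log2 (SE 0.20, adjusted p = 0.014) was under the limit of size. gln-1, the other glutamine synthetase gene, was at 398 ± 33.8 FPKM in glutamine and 588 ± 29.6 FPKM in full medium (SD, n = 3 and 5; -0.57 log2, adjusted p = 0.028 by limma). am, the NADP-dependent glutamate dehydrogenase, was at 1016 ± 266 FPKM in glutamine and 1463 ± 146 FPKM in full medium (-0.56 log2, adjusted p = 0.19). en(am)-2, glutamate synthase, differed by 0.36 log2 and gdh-1, the NAD-dependent dehydrogenase, by 0.13 log2.

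Amino acid transporters gave 0 called of 4. pmg, the general amino acid permease, was at 129, 94.6 and 119 FPKM in glutamine, against 227, 209.8, 209.2, 196 and 238 FPKM in full medium. All 3 glutamine libraries were lower, with -0.92 log2 (SE 0.17, adjusted p = 9.4e-05). That difference passed the limit of 1 log2 in 1 of 18 other settings, when the glutamine library numbered 1 in the joint table was left out (-1.02 log2, adjusted p = 0.00026). The neutral amino acid permease gene mtr (0.01), the basic amino acid permease gene pmb (-0.24) and aap-2 (-0.32) were not called. Purine breakdown gave 0 of 3, with xanthine dehydrogenase, xdh-1, at -0.43 log2, allantoicase, alc-1, at -0.46 and allantoinase, aln-1, at -0.19. Arginine breakdown gave 0 of 2, with arginase, aga-1, at -0.06 and ornithine aminotransferase, ota, at 0.10.

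Of 52 genes of amino acid synthesis none was called, with a median of -0.03 log2 and a range of -0.91 to 0.32 log2. The 9 ribosomal protein genes were all above 0, with a median of 0.32 log2 and none called. No gene was called among 7 genes of enzymes that use the amide nitrogen of glutamine (median 0.03), 13 heat shock genes (0.05), 29 of respiratory complex I (-0.12), 30 of the proteasome (0.07) or 76 tested glycoside hydrolase genes (-0.05). The background over all genes was 1.13% called with a median of 0.006 log2.

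The rises were led by a gene without a symbol. NCU04697 (supercontig 12.6, 421150 to 422696) was at 101, 142 and 113 FPKM in glutamine, against 29.4, 33.8, 27.0, 17.8 and 15.1 FPKM in full medium (2.27 log2, SE 0.35, adjusted p = 3.2e-06). All glutamine libraries lay above all those of full medium. Over the 14 wild type media its mean was highest in glutamine, and outside glutamine and full medium the highest mean was 9.17 FPKM, in nitrate. NCU04942 was at 212, 181 and 187 FPKM in glutamine, against 60.4 to 67.0 FPKM in full medium, and its mean was also the highest in glutamine, ahead of 110.5 FPKM in glutamate and 98.1 FPKM in ammonium. NCU05319 had its highest mean in glutamine too, at 17.8 ± 2.90 FPKM, but the range of 14.5 to 20.1 FPKM met that of 7.55 to 15.5 FPKM in ammonium.

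Of the 37 rises 3 genes had a symbol, aod-1, acu-6 and pho-4. aod-1, the alternative oxidase that bypasses part of the mitochondrial respiratory chain, was at 187, 227 and 180.0 FPKM in glutamine, against 38.2, 41.4, 40.9, 87.3 and 56.7 FPKM in full medium. It rose by 1.95 log2 (SE 0.29, adjusted p = 2.6e-06) without overlap. acu-6, phosphoenolpyruvate carboxykinase of gluconeogenesis, was at 70.0, 71.7 and 66.9 FPKM in glutamine, against 7.94, 10.7, 9.02, 46.2 and 15.1 FPKM in full medium (2.22 log2, SE 0.38, adjusted p = 3.5e-05). acu-6 was the 1 called of 11 glyoxylate and gluconeogenesis genes, whose median was 0.08 log2. The full medium libraries themselves spread widely.

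pho-4, a phosphate permease gene, was the 1 called of 7 phosphate uptake genes. It was at 13.6, 13.4 and 16.1 FPKM in glutamine, against 6.49, 6.49, 6.79, 4.802 and 5.06 FPKM in full medium. The groups did not overlap, with 1.16 log2 (adjusted p = 0.021), a call lost without any 1 of the glutamine libraries (1.08 to 1.20 log2, adjusted p = 0.054 to 0.11). Rises without a known symbol included NCU07491 (1.83), NCU00248 (1.80), NCU05755 (1.75), NCU04526 (1.67) and NCU04249 (1.44).

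In conidiation genes, 1 of 20 was called. con-6, a conidiation gene, was at 1.85, 1.43 and 1.35 FPKM in glutamine, against 19.4, 24.3, 23.1, 1.11 and 1.67 FPKM in full medium (-1.88 log2, adjusted p = 0.0022). 3 full medium libraries were high and 2 were at the level of glutamine. eas, the conidial hydrophobin, was at 8.58 ± 4.46 FPKM in glutamine and 52.5 ± 24.4 FPKM in full medium (SD, n = 3 and 5), and did not pass (-2.44 log2, adjusted p = 0.095 by limma). app, which encodes an abundant perithecial protein, was at 8.13, 7.70 and 5.81 FPKM in glutamine, against 27.1, 39.8, 28.4, 10.9 and 22.9 FPKM in full medium. It fell by 1.61 log2 (SE 0.40, adjusted p = 0.0054), a call lost without the glutamine library numbered 3 in the joint table (-1.48 log2, adjusted p = 0.055).

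The low and high values of con-6 followed the label numbers of the full medium libraries. In the per-sample values, scaled by median ratios, it was at 1.96, 1.41 and 1.496 FPKM in glutamine, against 19.8, 24.9 and 24.3 FPKM in full medium libraries 1 to 3 and 1.80 and 1.20 FPKM in libraries 4 and 5. acu-6 was at 74.4, 69.7 and 75.1 FPKM in glutamine, against 8.07, 10.8 and 9.49 FPKM in libraries 1 to 3 and 16.3 and 50.0 FPKM in libraries 4 and 5. The glutamine libraries stood above every full medium library for acu-6. By limma, acu-6 differed by 2.83 log2 from libraries 1 to 3 (adjusted p = 2.8e-07) and by 1.32 log2 from 4 and 5 (adjusted p = 0.13). con-6 differed by -3.19 log2 from libraries 1 to 3 (adjusted p = 3e-11) and by 0.08 log2 from 4 and 5 (adjusted p = 0.98).

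**Figure D3:**
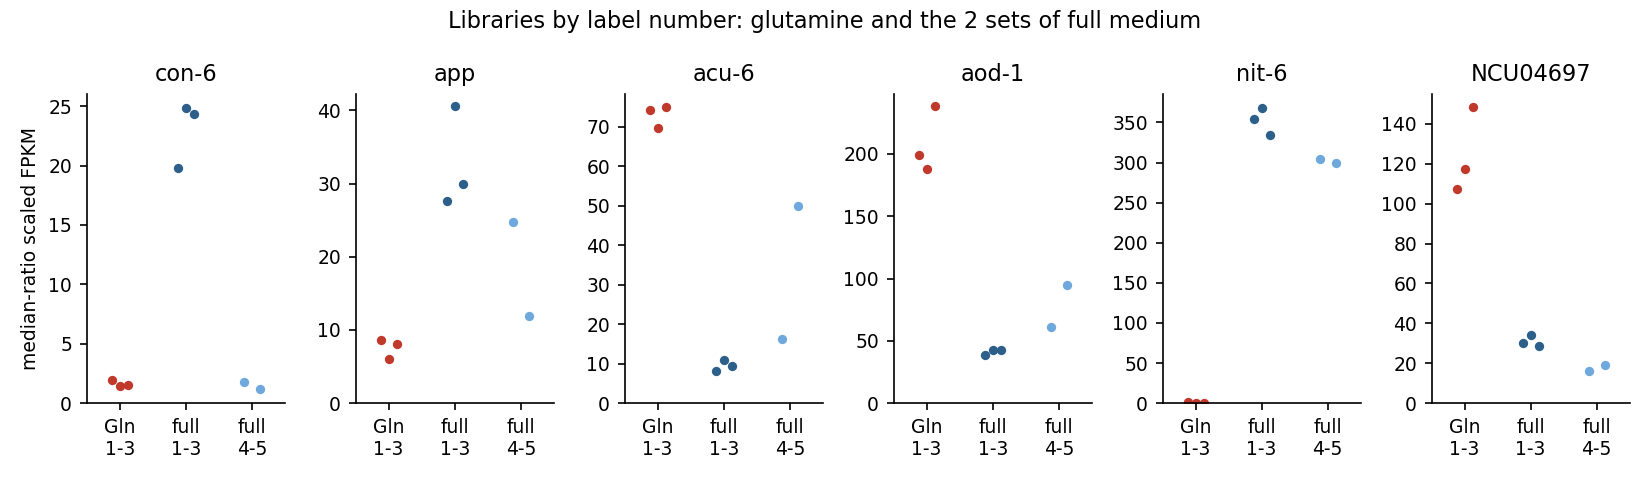
Median-ratio scaled FPKM of each library by label number for 6 genes: glutamine 1 to 3, full medium 1 to 3, and full medium 4 and 5. nit-6 is low in glutamine against both sets of full medium, NCU04697 and aod-1 are high against both, and con-6 is at the level of glutamine in full medium 4 and 5.

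Each called gene was also tested against each of the 2 sets of full medium libraries, on the per-sample values. With those values and all 5 libraries, 37 of the 37 genes higher in glutamine and 59 of the 60 lower ones were called. Of the 37 genes higher in glutamine, 19 were called against both sets, 17 against libraries 1 to 3 only, 0 against 4 and 5 only and 1 against neither. Of the 60 lower genes, 38 were called against both, 10 against 1 to 3 only, 11 against 4 and 5 only and 1 against neither. The last was the merged entry NCU07958,NCU07959, at -1.35 log2 in the joint table. The merged entry averaged 62.8 FPKM in glutamine and 162 FPKM in full medium. In the per-sample values only its first gene, NCU07958, was read, at 19.3 to 21.7 FPKM in glutamine and 21.1 to 25.2 FPKM in full medium. For NCU07958 the difference was -0.17 log2 with all 5 libraries. NCU07959 was not read on its own, so whether it carried the fall of the merged entry was not tested. Libraries 4 and 5 are a set of 2, with less power than the set of 3. What set the libraries apart is not given by the labels, and mitochondrial FPKM moved with the sets, as given above. Estimated depth did so too, at 8100000 to 11600000 fragments in libraries 1 to 3 and 13300000 to 15900000 in 4 and 5, beside 13500000 to 17900000 in glutamine. The part of either was not tested.

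Genes lower in glutamine were next read in libraries that entered neither group mean of the comparison, only its shared spread and filter. In nitrate against ammonium, 85 of 8558 genes were called (0.993%), with 74 higher (0.865%) and 11 lower (0.129%), and of the 60 genes lower in glutamine 18 were higher on nitrate (30%) and 0 lower. Those 18 were 24.3% of the 74. In Δnit-2 against wild type, both on nitrate, 771 genes were called (9.01%), of which 460 were lower (5.38%) and 311 higher (3.63%), and of the 60 genes 17 were lower (28.3%) and 7 higher (11.7%). Those 17 were 3.7% of the 460. Mitochondrial genes took 0.0464 to 0.141% of FPKM in wild type on nitrate and 0.0512 to 0.0658% in Δnit-2 on nitrate, whose part was not tested.

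nit-2 itself was at 3.66 to 4.51 FPKM in Δnit-2, against 66.2 to 73.7 FPKM in wild type on nitrate. Both readouts held for 12 of the 60 genes, among them nit-3, nit-10, NCU08407, NCU06416, NCU01348, NCU09909 and NCU04435. No share over all genes was computed for this joint count, so it is a description only. The wild type nitrate libraries enter both readouts, which are thus not independent of each other. nit-3 averaged 1.49 ± 0.102 FPKM in Δnit-2 and 179.8 ± 16.96 FPKM in wild type on nitrate (-6.18 log2), and it was 4.36 log2 higher on nitrate than on ammonium. NCU01348 averaged 1.31 FPKM in Δnit-2 and 446 FPKM in wild type (-7.58 log2), and NCU06416 2.38 FPKM in Δnit-2 and 146 FPKM in wild type (-5.44 log2). All 3 were far lower in Δnit-2 than in wild type. In wild type on glutamine nit-3 averaged 0.685 FPKM, NCU01348 11.2 FPKM and NCU06416 12.4 FPKM.

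A further 6 genes were higher on nitrate than on ammonium but not called lower in Δnit-2. nit-6 was 3.33 log2 higher on nitrate and 2.28 log2 lower in Δnit-2, a difference with SE 0.97 that narrowly missed the threshold (adjusted p = 0.052 by limma). NCU10051 was at 1088 to 2206 FPKM in Δnit-2 and 1504 to 1818 FPKM in wild type on nitrate (-0.02 log2), while it was 2.79 log2 higher on nitrate than on ammonium. npd-1 was 0.56 log2 higher in Δnit-2 and 2.18 log2 higher on nitrate. The other 3 genes were NCU04721, next to nit-6, NCU10052, next to NCU10051, and NCU06977. By limma NCU04721 (-0.53 log2, adjusted p = 0.0067) and NCU10052 (-0.75 log2, adjusted p = 0.0017) were lower in Δnit-2 but under the limit of size. NCU06977 differed there by -0.15 log2 (adjusted p = 0.71). NCU09160 went the other way in Δnit-2, 1.81 log2 higher.

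**Figure D4:**
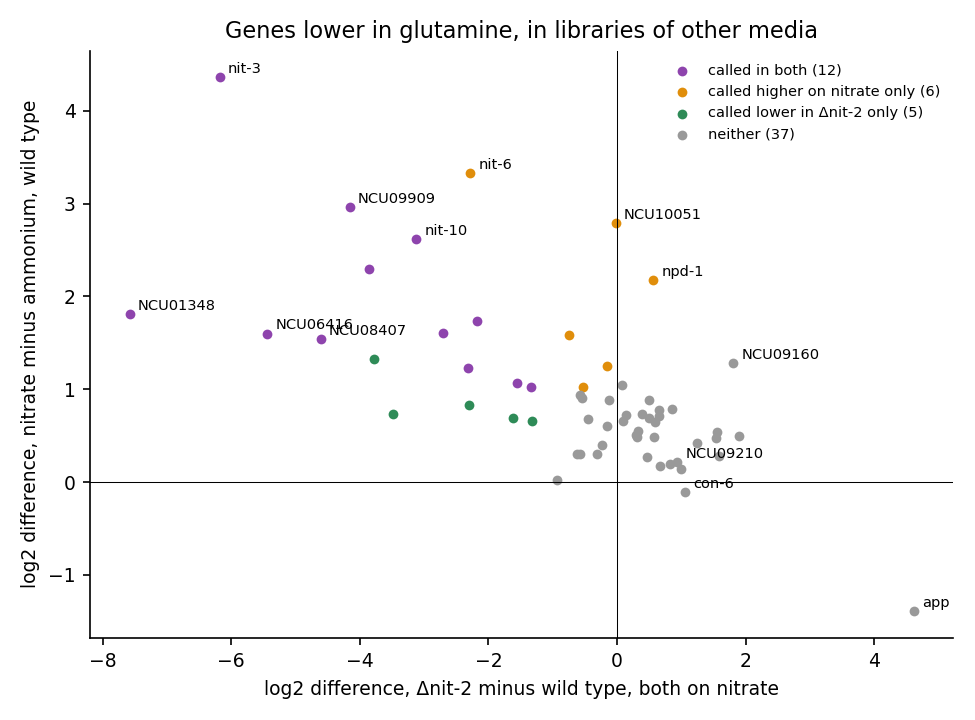
The 60 genes lower in glutamine, plotted by their difference between Δnit-2 and wild type on nitrate (log2, x axis). The y axis is their difference between nitrate and ammonium in wild type (log2). These libraries entered neither group mean by which the genes were chosen, only the shared spread and filter. 12 genes are called on both axes, a count without a share over all genes, and the axes share the wild type nitrate libraries. nit-3 is the highest on the y axis at 4.36 log2. NCU10051 and npd-1 lie high on nitrate with little change in Δnit-2.

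Of the 37 genes higher in glutamine, 14 were higher in Δnit-2 on nitrate (37.8%) and 3 lower (8.11%), against 3.63% and 5.38% of all genes. acu-6 was 2.19 log2 higher in Δnit-2, with NCU00248 (2.17), NCU05755 (1.84) and NCU07491 (1.66). Between nitrate and ammonium 2 of the 37 were higher (5.41%), NCU09914 (1.52 log2) and NCU04697 (1.43 log2). The 1 lower (2.7%) was NCU04942 (-2.24 log2). Over all genes 0.865% were higher and 0.129% lower.

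Among the 97 genes, 16 lay next to another called gene by the order of the reference table, in 8 pairs, and each pair moved in 1 direction. No share over all genes was computed for either count, so both are a description only. nit-6 and NCU04721 were 875 bases apart, and NCU06416 and NCU06417 110 bases apart. The loci of each pair did not overlap in the reference table, with gaps of 110 to 2534 bases. No source used here gives the strand setting of the counting, so reads from any transcript ends that do overlap cannot be told apart.

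Glutamate, the amino acid from which glutamine is made, was given at the same 50 mM. This comparison shares its 3 glutamine libraries with the one above. limma called 387 of 8558 genes between the media (4.52%), 120 higher in glutamine (1.4%) and 267 lower (3.12%). The mitochondrial share was 0.0174 to 0.0219% in glutamate, and its part was not tested.

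All 5 ammonium assimilation genes were called. gln-1 was at 431, 363 and 399 FPKM in glutamine, against 1305, 1267 and 1268 FPKM in glutamate (-1.69 log2, SE 0.19, adjusted p = 1.8e-10). gln-2 averaged 214 ± 44.6 FPKM in glutamine and 683 ± 44.3 FPKM in glutamate (SD, n = 3 each), and fell by 1.69 log2 (adjusted p = 1.4e-08 by limma). gdh-1 fell by 1.08 log2. am and en(am)-2 were higher in glutamine: am at 1245, 724 and 1081 FPKM, against 368, 331 and 327 FPKM in glutamate (1.53 log2, SE 0.28, adjusted p = 1.8e-05), and en(am)-2 at 132 ± 17.2 FPKM in glutamine, against 33.8 ± 2.23 FPKM in glutamate (1.93 log2).

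pmg was at 129, 94.6 and 119 FPKM in glutamine, against 1139, 1169 and 1212 FPKM in glutamate (-3.36 log2, SE 0.19, adjusted p = 2.4e-22). lao, L-amino acid oxidase, was at 37.8, 30.2 and 30.4 FPKM in glutamine, against 190.1, 180.5 and 184 FPKM in glutamate (-2.47 log2, adjusted p = 2.4e-05). Both were lower in glutamine than in glutamate without overlap. For lao the glutamine libraries lay within the full medium range of 25.7 to 38.8 FPKM. The nitrate genes were called in 0 of 3 cases, with -0.54 to -0.06 log2. For nit-10 this is the merged entry. On the values of nit-10 alone it was at 4.52 to 6.72 FPKM (median-ratio scaled) in glutamine, against 5.95 to 6.72 FPKM in glutamate (-0.22 log2, adjusted p = 0.87), and likewise not called. Against full medium nit-6 and nit-3 lay at -7.42 and -4.88 log2, and nit-10 alone at -5.65 log2 over all 5 libraries.

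**Figure D5:**
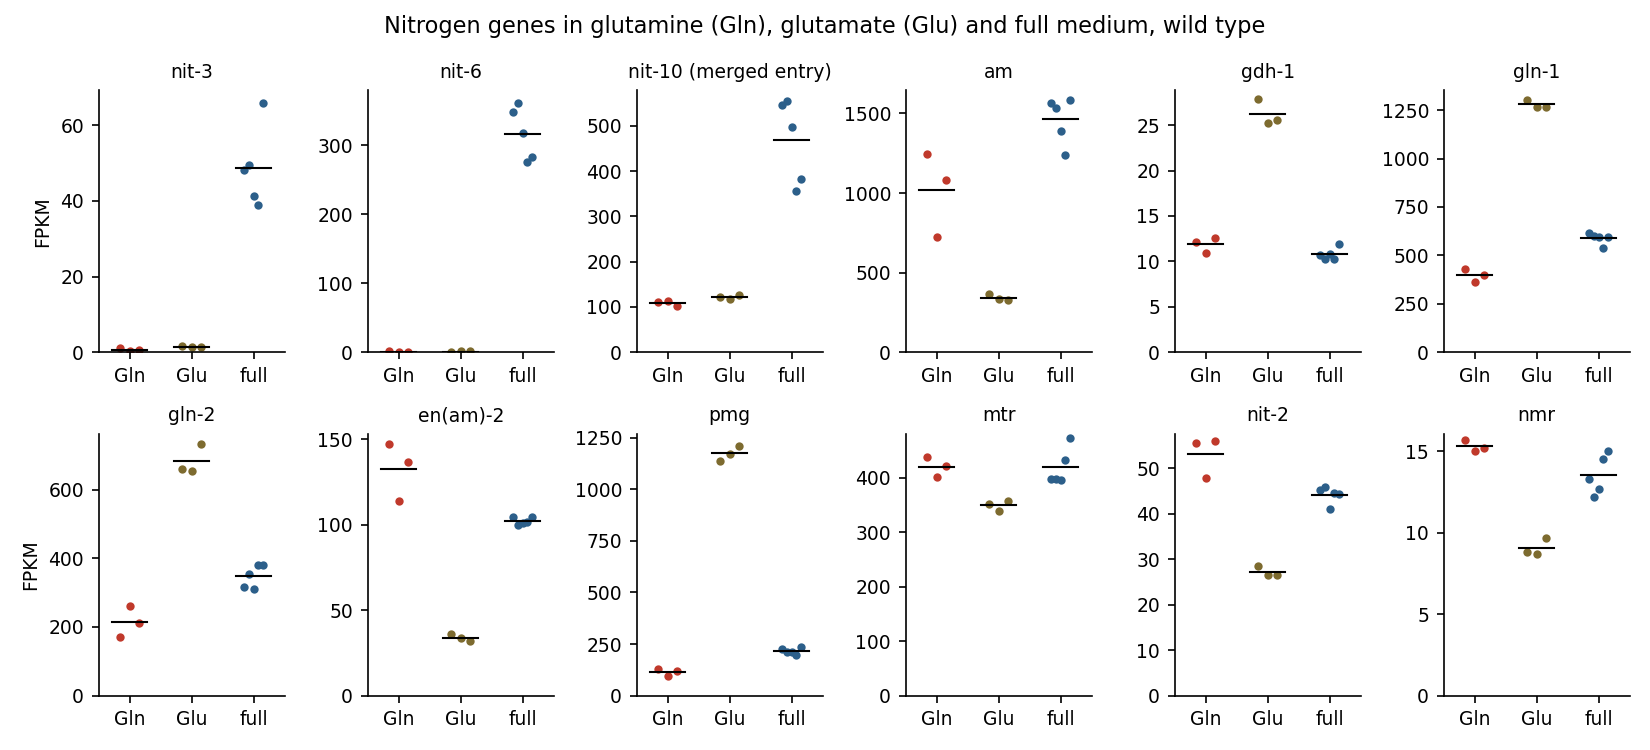
FPKM of 12 nitrogen genes in glutamine, glutamate and full medium, 1 point per library with the mean as a bar, each panel starting at 0. The nitrate genes are low in both amino acid media, while gln-1, gln-2, gdh-1 and pmg are highest, and am and en(am)-2 lowest, in glutamate among the 3 media plotted.

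Some synthesis genes were higher in glutamine than in glutamate. Over all genes 1.4% were called higher and 3.12% lower. Other lists were shifted too, with medians of 0.87 log2 for 9 ribosomal protein genes (1 called) and 0.58 log2 for 13 heat shock genes (0 called). The median of 2 autophagy genes was -0.58 log2 (0 called). Of 52 amino acid synthesis genes 5 were higher in glutamine and 0 lower, with a median of 0.76 log2 against a median of 0.039 over all genes: his-6, a histidine gene (1.41 log2), leu-2, a leucine gene (1.25), met-7, a methionine gene (1.18), ilv-4 (1.07) and trp-3, tryptophan synthase (1.02). Of 9 purine and pyrimidine synthesis genes 2 rose, pyr-3 (1.10 log2) and gua-3 (1.04 log2), and 7 were not called. Among 20 conidiation genes 4 were lower in glutamine: ccg-13 (-2.72), ccg-1 (-1.61), the conidiation regulator fl (-1.23) and ccg-9 (-1.10). The summed level of the 8 markers of conidia and aerial hyphae was 26.2 to 31.4 FPKM in glutamine and 81.3 to 106 FPKM in glutamate. Of these sums eas alone gave 5.65 to 13.7 FPKM in glutamine and 33.2 to 60.3 FPKM in glutamate. All 8 belong to the 20 conidiation genes, and the part of such cells was not tested. Of 13 light and carotenoid genes 1 fell, al-1, phytoene desaturase of carotenoid synthesis, by 1.17 log2. Of 7 phosphate uptake genes 2 fell, pho-4 and pho-2, by 1.68 and 1.04 log2. NCU04697 was at 101, 142 and 113 FPKM in glutamine, against 3.34, 4.96 and 3.13 FPKM in glutamate (4.64 log2).

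Over the 14 wild type media, the 60 genes lower in glutamine than in full medium had glutamine as their lowest mean in 17 cases and among the 3 lowest in 49. The 37 higher genes had it as their highest in 5 cases and among the 3 highest in 11. These ranks are a description, since both full medium and glutamine enter them and chose the genes. NCU09160, low in glutamine at 2.68 FPKM, reached 222 FPKM under carbon starvation and 192 FPKM in mannose, and aod-1, at 198 FPKM in glutamine, was higher in glycine at 340 FPKM.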

How the data were processed

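The values used are FPKM per gene, made by the authors with HISAT2 2.1.0, Cufflinks 2.2.1 and Cuffnorm 2.2.1, per the submitters' processing notes. Neither the build nor the strand setting is given in the sources used here. The loci in the per-sample files, printed 1-based, equalled those of reference assembly NC12 for 99.9% of genes. Of 9758 identifiers 9757 matched it and 1118 had a symbol. The joint table held 9598 entries, 153 of them merged neighbouring genes. Its column numbers need not equal label numbers, so its columns were used by group, and values by label number come from the per-sample files after median-ratio scaling. The depth was estimated from the deposited upper bounds, which gave whole fragments (within 0.05) in 78.3% of values under 20 fragments; over all 86 libraries it was 6890000 to 19100000. Of 13 replicate pairs none was identical (lowest chi-square per degree of freedom 3.94).

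FPKM are not counts, so limma 3.58.1 in R 4.3.3 was fitted to log2(FPKM + 1) over all 86 libraries, with 1 mean per group, a trended prior and Benjamini-Hochberg adjustment, after a filter at 1 FPKM in 3 libraries. The fit was checked on simulated data with normal noise and the same spread of a gene in every group. That check held no split within full medium, so it cannot show how such a split affects the calls. Other settings were a pseudocount of 0.1, no filter or one at 10 FPKM, median-ratio scaling, per-sample values, only the groups compared, a replicate block, subsets of full medium, and each library left out. Genes named are all members of 6 nitrogen lists, up to 4 called members of other lists, and the 15 largest falls and rises with a mean of 5 FPKM and no overlap; others named, such as eas, lao and those of the comparison with glutamate, were chosen after their values were seen. The members and lists were chosen with earlier results of these data known, and 3 lists were added after symbols were read. The list for molybdenum cofactor had 0 members. Figures were drawn with matplotlib 3.10.9 in Python 3.11.15.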

Additional observations from a re-analysis of the deposited data

Results flagged for a closer look

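In 55 named genes the 5 full medium libraries were searched for a library far from the other 4, by the gap to the nearest library over the whole range, with a limit of 0.71. 7 genes passed, and chance flags about 1 in 20 groups. Libraries carry their number in the joint table. Library 4 was the highest for acu-6 (ratio 0.812; 46.2 FPKM, the others 7.94 to 15.1), NCU04526 (0.774; 6.43, the others 2.78 to 3.61) and NCU10051 (0.739; 1026, the others 560.4 to 682). It was the lowest for NCU06416 (0.797; 44.2, the others 65.7 to 71.2), cpc-1 (0.77; 1804, the others 2102 to 2191) and gln-1 (0.714; 538, the others 593 to 615). Library 5 was the highest for NCU07491 (0.751; 58.7, the others 36.0 to 41.7). Without library 4 of the joint table, 53 genes were higher and 58 lower in glutamine. This number is not the label number. In the median-ratio scaled per-sample values, the full medium library labelled 5 was highest for acu-6 (50.0 FPKM) and NCU10051 (1118 FPKM). It was lowest for NCU06416 (48.0 FPKM).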

How the results depend on the processing

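The falls in nitrate genes kept their direction and their call under all 18 settings, as did 27 of the 32 called genes that are named. Of the 97 genes 49 kept their call under all settings (30 lower, 19 higher), and 61 whichever 1 library was left out. With a pseudocount of 0.1 the count was 153 (62 higher, 91 lower) in place of 97, and elsewhere 402 lower against glutamate, 524 higher in Δnit-2 and 18 lower on nitrate. Against full medium libraries 1 to 3 there were 65 higher, against libraries 4 and 5 there were 24. Leaving out 1 library gave 88 to 114 genes, 32 to 53 higher and 48 to 79 lower. In Δnit-2 against wild type on nitrate it gave 340 to 555 lower, both ends without a wild type library. In nitrate against ammonium it gave 55 to 84 higher. con-6 reversed to 0.08 against libraries 4 and 5, and lost its call when only the groups compared were fitted (-1.88, adjusted p = 0.19). pho-4 also missed with a pseudocount of 0.1 (1.27, adjusted p = 0.056) and against either set of full medium libraries (1.05 and 1.34). app (-1.09), acu-6 (1.32) and NCU08397 (-1.74) missed against libraries 4 and 5. For these the cause was not tested.

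Replicate numbers do not pair the samples by label: same-numbered deviations correlated at 0.219, -0.070 and 0.020, and not every sample correlated best with its own number. With the replicate number as a block and only the groups compared, 146 genes were called, 70 of them higher; the same fit without it, added after seeing the data, called 37 higher and 62 lower. Full medium libraries 4 and 5 have numbers that no glutamine library has, so under the block they do not enter the difference. In the other comparisons the block moved no count by over 1.5 times. With 3 against 5 libraries and depth of 8100000 fragments or more, counting error weighs most on the lowest genes, such as nit-3 and nit-6 in glutamine.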
